A study of Mus musculus with 6 samples.

Results

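The genes described here encode the enzymes that build, trim and sulfate glycans in the mouse oocyte. They were chosen by symbol from the first column of the deposited tables: the Alg, B3ga, B3gn, B4gal, Galnt, Mgat, Man1, Man2, Gcnt, Fut, St3gal, St6gal and St8sia families, and the Ext, Extl, Ndst, Hs2st, Hs3st, Hs6st, Chst and Ust genes. Of 23284 symbols, 148 matched, by a rule that reads symbols alone. RNA was measured by sequencing in germinal vesicle (GV) oocytes, which are fully grown oocytes arrested before meiosis resumes. There were 3 libraries labelled Lsd1 KO and 3 labelled Control. All oocytes came from females of a mixed C57BL/6-129 strain aged 4 to 6 weeks, collected 48 hours after an injection of gonadotrophin (5 IU, from the serum of pregnant mares), and each library was made from 100 of them after whole-transcriptome amplification of the cDNA. Lsd1 is the histone demethylase gene listed under the symbol Kdm1a. What drives the deletion, which exons it removes and the exact control genotype are not given in the labels.

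As background, N-glycans start as a precursor that Alg enzymes assemble on dolichol in the endoplasmic reticulum, and that is then moved to protein, trimmed by mannosidases and branched by Mgat enzymes in the Golgi. Galnt enzymes begin mucin-type O-glycans, further transferases lengthen chains, and sialic acid and fucose cap them. Ext enzymes polymerize heparan sulfate, and sulfotransferases add sulfate to that chain or, as Ust and Chst enzymes do, to chondroitin, dermatan and keratan sulfate and other glycans. In the ovary the zona pellucida around the oocyte is made of glycoproteins that carry such glycans.

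Promoters of 4 genes to which the results return are shown first, because these genes had among the largest differences in their roles: Ust and Hs2st1, which add sulfate to glycosaminoglycans, Galnt3, which starts O-glycans, and St8sia1, which makes the ganglioside GD3. The sequences are from RefSeq on GRCm38.p6, each of 300 bases, 250 before and 50 after a transcript start, written 5′ to 3′ on the gene's own strand, which is the minus strand for all 4. Capitals mark the GC box, GGGCGG on either strand. The windows lie at chr10:8518776-8519075 (Ust), chr3:144570167-144570466 (Hs2st1), chr2:66124744-66125043 (Galnt3) and chr6:142964403-142964702 (St8sia1).
Ust: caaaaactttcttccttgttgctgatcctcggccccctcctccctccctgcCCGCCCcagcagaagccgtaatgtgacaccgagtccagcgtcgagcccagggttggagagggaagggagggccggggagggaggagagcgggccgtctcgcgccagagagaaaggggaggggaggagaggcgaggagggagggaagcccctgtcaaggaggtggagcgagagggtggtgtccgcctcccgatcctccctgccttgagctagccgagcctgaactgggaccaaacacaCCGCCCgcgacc
Hs2st1: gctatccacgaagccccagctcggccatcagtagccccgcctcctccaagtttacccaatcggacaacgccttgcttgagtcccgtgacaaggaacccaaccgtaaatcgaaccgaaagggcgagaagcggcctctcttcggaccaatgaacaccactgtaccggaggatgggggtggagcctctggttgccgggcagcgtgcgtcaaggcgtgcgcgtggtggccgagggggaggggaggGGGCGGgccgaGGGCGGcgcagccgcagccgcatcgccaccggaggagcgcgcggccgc
Galnt3: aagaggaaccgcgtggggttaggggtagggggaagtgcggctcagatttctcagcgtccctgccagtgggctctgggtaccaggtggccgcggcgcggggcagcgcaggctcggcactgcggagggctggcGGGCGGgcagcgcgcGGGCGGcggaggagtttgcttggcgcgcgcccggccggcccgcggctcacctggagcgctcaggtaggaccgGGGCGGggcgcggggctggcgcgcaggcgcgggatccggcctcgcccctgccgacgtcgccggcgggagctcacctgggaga
St8sia1: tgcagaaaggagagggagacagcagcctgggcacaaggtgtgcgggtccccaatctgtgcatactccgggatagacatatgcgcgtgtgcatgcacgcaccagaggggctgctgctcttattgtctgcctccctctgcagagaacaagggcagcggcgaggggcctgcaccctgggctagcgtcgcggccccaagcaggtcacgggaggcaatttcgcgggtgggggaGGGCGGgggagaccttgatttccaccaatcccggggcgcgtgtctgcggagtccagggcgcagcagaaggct
The GC box had 2 matches in the Ust window, 2 in that of Hs2st1, 3 in that of Galnt3 and 1 in that of St8sia1, and 35.7% of all 32841 RefSeq promoter windows of this length held at least 1. Genes that fell (Ust, Hs2st1 and Galnt3) and the rising St8sia1 thus all held this motif. The E box CANNTG, searched on both strands, was absent from the Ust and Hs2st1 windows, was found 3 times in that of Galnt3 and once in that of St8sia1, and was held by 72.3% of all windows. RefSeq windows were at hand for 109 of the 148 genes and for 11 of the 18 that passed the test described next. Among those 11, B3gnt2 had 5 GC boxes, while Alg13, Chst4 and Galntl5 had none.

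Of the 148 genes, 15 had no count in any library and 45 had counts too low to be tested. The other 88 passed the filter on low counts (a minimum count of 10 by edgeR's filterByExpr). Gene levels are counts per library total after TMM scaling (CPM), and each comparison is of Lsd1 KO with Control by edgeR's quasi-likelihood test, adjusted over all 12935 genes tested, with a threshold of 0.05. Of the 88, 18 passed, which is 20.5%: 8 were higher in Lsd1 KO (9.09%) and 10 lower (11.4%). Over all genes tested, 21.3% passed, 11.0% higher and 10.3% lower, so the share among the glycan enzymes was near the background. Their median log2 fold change was -0.12, against -0.01 over all genes tested, and the median absolute log2 fold change was 0.41 against 0.44. Groups did not overlap for 27 of the 88 (30.7%), against 38.7% of all genes tested. Of the genes that passed, 6 of the 8 higher and 8 of the 10 lower differed by at least 2-fold. The matching share over all genes that passed was not computed.

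**Figure D1:**
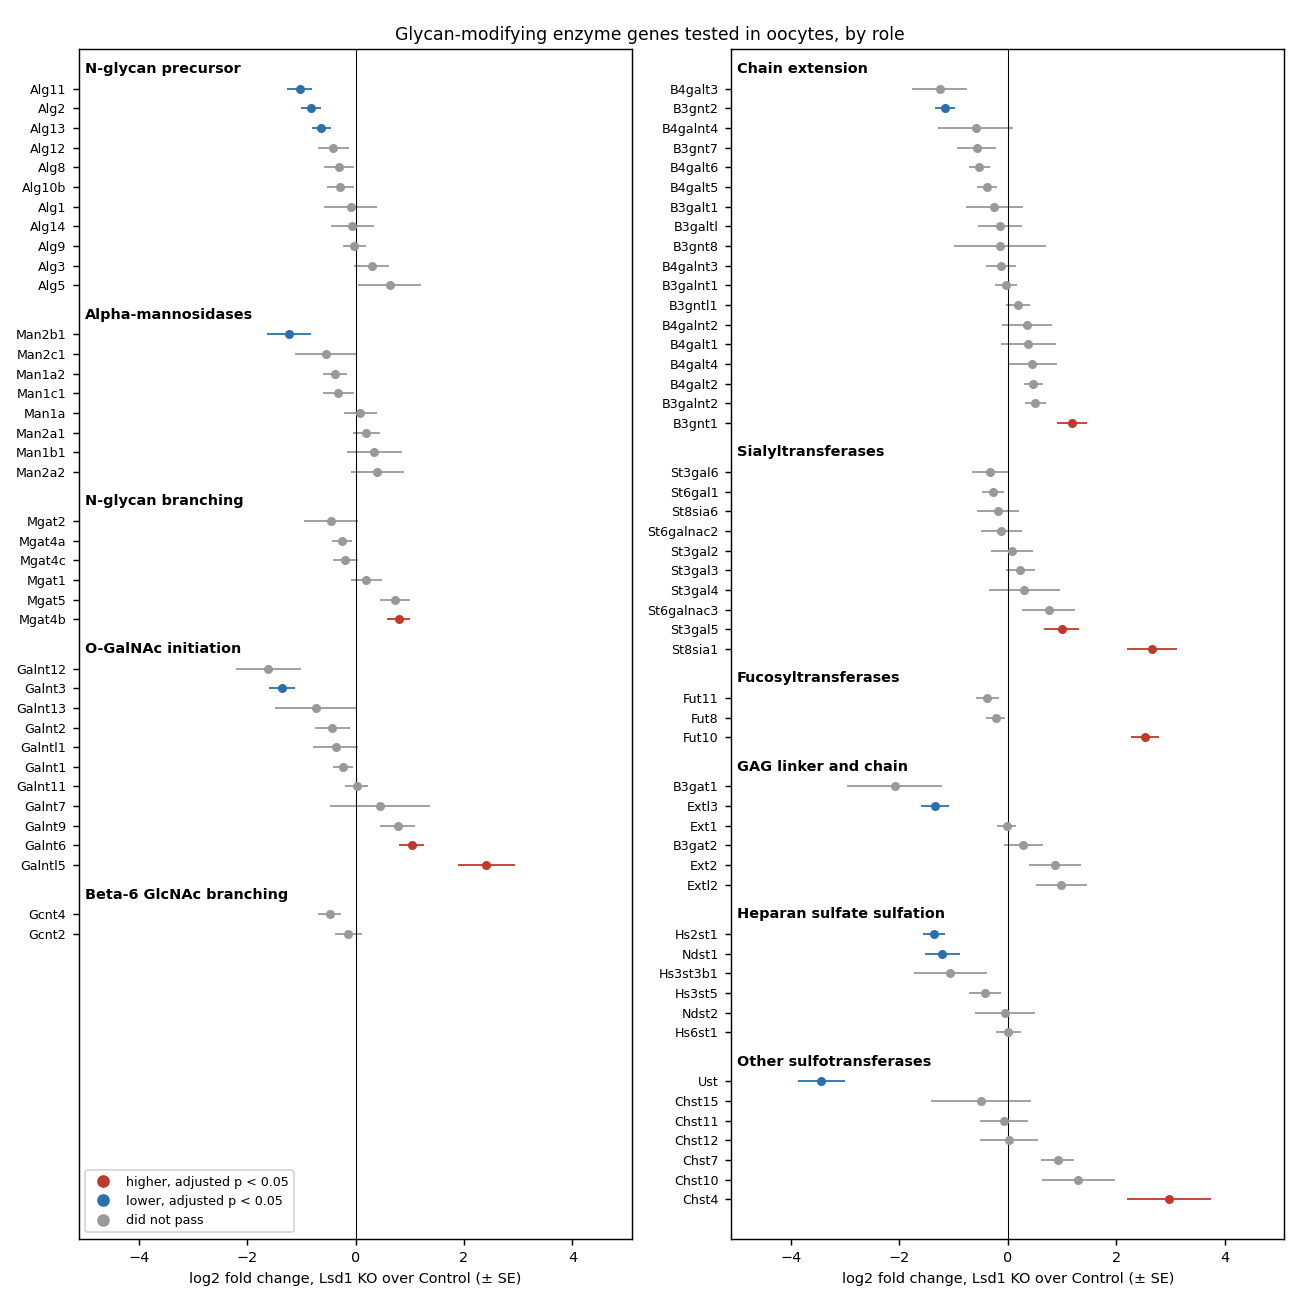
Log2 fold change of Lsd1 KO over Control (horizontal axis, with ± SE bars, 3 libraries per group) for the 88 tested genes, grouped by role; red marks the 8 that were higher and blue the 10 that were lower at an adjusted p under 0.05. Ust lies farthest to the left, and Chst4, St8sia1, Fut10 and Galntl5 farthest to the right.

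Kdm1a itself was at 3.77, 2.80 and 3.23 CPM in Lsd1 KO libraries 1, 2 and 3 and at 73.9, 72.5 and 44.4 CPM in Control libraries 1, 2 and 3, a log2 fold change of -4.28 ± 0.27 (SE, n = 3 per group, adjusted p = 4.58e-06). Library totals ran from 10735422 to 13035045 counts, and genes with a count from 15762 to 16815. The third principal component set Lsd1 KO 2 apart from the other libraries and the second set Control 3 apart. All 13 oocyte markers were detected, with sums of 37640 to 40890 CPM in Lsd1 KO against 25170 to 29480 CPM in Control. Of these, 3 were higher (Gdf9, Oosp1 and Dppa3) and 10 did not pass. Among those 10, Bmp15, Zp1, Zp3, Figla, Nobox, Zar1 and H1foo had negative log2 fold changes, and Zp2, Nlrp5 and Npm2 positive ones. Most of the gap between the sums was in Gdf9, at 15560 ± 1264 against 6057 ± 830 CPM (SD, n = 3). The sum of 16 immune markers was 239, 37.0 and 215 CPM in Lsd1 KO, against 70.0, 25.7 and 81.1 CPM in Control, with 1 of 12 tested markers higher (Cd68), and Ptprc was listed at 0 in Lsd1 KO 2. The 16 granulosa and cumulus markers summed to 694 to 796 CPM in Lsd1 KO and 347 to 427 CPM in Control. Of 12 tested, 4 were higher (Cyp19a1, Inha, Ptgs2 and Gja1) and Nr5a2 was lower. Most of the gap between these sums was in Cyp19a1, at 324 ± 82.8 against 36.8 ± 11.0 CPM (SD, n = 3). Foxl2, Fshr, Inhba, Inhbb, Hsd17b1 and Serpine2 had positive log2 fold changes and Kitl a negative one, and none of these passed. Amh stayed at or under 1.35 CPM and Ptx3 and Tnfaip6 at or under 0.38 CPM in every library. The 7 theca and steroidogenic markers summed to 11.3 to 43.4 CPM in Lsd1 KO and 8.94 to 15.3 CPM in Control, and none of 3 tested passed. The 11 stroma and endothelium markers summed to 114 to 131 CPM against 70.6 to 88.4 CPM. Of 4 tested, 2 were higher: Dcn (log2 fold change 4.14 ± 0.48, adjusted p = 1.92e-04) and Tek (0.73 ± 0.22, adjusted p = 0.0306), while Cdh5 was at or near 0. The part of these other cells in the results below was not tested, and in pooled oocytes fewer cells of a type and less RNA per cell cannot be told apart.

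Counts by role, here and below, are of few genes, and no role was tested as a set. They stand beside 11.0% higher and 10.3% lower over all genes tested. The N-glycan precursor enzymes held 3 genes that fell and none that rose among 11 tested. Summed per kilobase of exon, their levels were 169 to 200 CPM per kb in Lsd1 KO and 233 to 260 CPM per kb in Control, and these sums did not overlap. Most of each sum was in Alg13 and Alg10b, described below. Alg13 made up 34.2% ± 4.59 in Lsd1 KO and 39.4% ± 7.88 in Control (SD, n = 3), and Alg10b 32.2% ± 7.63 and 29.2% ± 5.78. Alg11, which adds later mannoses on the cytosolic side (chr8:23171193-23182099, gene positions here and below in mm9), was at 36.0, 33.2 and 26.6 CPM in Lsd1 KO, against 71.6, 80.1 and 44.3 CPM in Control. Every Lsd1 KO library was below every Control library, and the log2 fold change was -1.03 ± 0.24 (adjusted p = 0.00924). Alg2, which adds earlier mannoses (chr4:47477939-47487205), was at 22.8, 25.2 and 25.3 CPM against 49.0, 37.9 and 42.7 CPM. The groups did not overlap for Alg2 either (log2 fold change -0.82 ± 0.19, adjusted p = 0.010).

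Alg13, a subunit of the transferase that adds GlcNAc (chrX:140752355-140808993), was per kilobase the highest Alg gene in Control, with 97.3 CPM per kb. It was at 368, 361 and 395 CPM in Lsd1 KO, against 648, 613 and 480 CPM in Control, with no overlap (log2 fold change -0.63 ± 0.18, adjusted p = 0.0233). This call was lost when any library other than Control 3 was left out (adjusted p = 0.0583 to 0.0894), and with Control 3 left out adjusted p was 0.00988. Alg14, the partner of Alg13, had a log2 fold change of -0.06 ± 0.40 and did not pass. Alg10b, which adds the last glucose and was second to Alg13 per kilobase in Control at 73.3 CPM per kb, was at 221, 298 and 155 CPM against 199, 288 and 332 CPM, and the groups overlapped (log2 fold change -0.28 ± 0.25, adjusted p = 0.452).

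Mannosidases trim rather than extend, and 1 of 8 tested fell. Man2b1, the lysosomal alpha-mannosidase (chr8:87607168-87622638), was at 4.81, 2.53 and 5.39 CPM in Lsd1 KO, against 14.7, 8.29 and 6.95 CPM in Control (log2 fold change -1.23 ± 0.40, adjusted p = 0.0462). Control 1 was the highest and the groups did not overlap. Without any library other than Control 3 it did not pass (adjusted p = 0.0614 to 0.214). Man1a2 and Man2a1, Golgi mannosidases of N-glycan trimming, had the most counts of the role, with log2 fold changes of -0.38 ± 0.23 and 0.19 ± 0.25 and did not pass.

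Among 6 tested N-glycan branching enzymes 1 rose and none fell. Mgat4b, which starts an antenna of complex N-glycans (chr11:50024392-50048605), was at 28.9, 28.2 and 24.0 CPM in Lsd1 KO, against 13.8, 16.9 and 16.1 CPM in Control, with no overlap (log2 fold change 0.79 ± 0.22, adjusted p = 0.0206). It did not pass without Lsd1 KO 1 (adjusted p = 0.0872) or without Control 1 (adjusted p = 0.0697). Its isoenzyme Mgat4a, the highest gene of the role per kilobase, had a log2 fold change of -0.26 ± 0.19 and did not pass. Of the summed level of the role per kilobase, Mgat4b made up 26.3% ± 4.08 in Lsd1 KO and 16.2% ± 1.69 in Control (SD, n = 3), and Mgat4a 38.9% ± 1.75 and 50.1% ± 1.01. Both shares were separate between the groups in all libraries, so the make-up of the role differed. Shares of the same sum depend on each other, and of these isoenzymes only Mgat4b passed. The role's sum overlapped, at 34.3 to 44.3 CPM per kb against 32.6 to 40.0 CPM per kb. Mgat5, which makes another branch, was at 15.8, 22.1 and 17.0 CPM against 8.14, 12.5 and 12.5 CPM, without overlap, and missed the threshold (log2 fold change 0.73 ± 0.27, adjusted p = 0.0775). Mgat4c had a log2 fold change of -0.19 ± 0.22.

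The Galnt enzymes, which place the first GalNAc of O-glycans, had 2 genes higher and 1 lower of 11 tested. Galnt6 (chr15:100522244-100559807) was at 101, 58.9 and 75.1 CPM in Lsd1 KO, against 32.9, 36.2 and 45.9 CPM in Control (log2 fold change 1.03 ± 0.23, adjusted p = 0.00766). Galnt3, a close relative of Galnt6 (chr2:65920823-65963051), was at 8.90, 9.38 and 10.4 CPM against 23.9, 28.1 and 21.4 CPM (log2 fold change -1.35 ± 0.24, adjusted p = 0.00232). The groups did not overlap for either gene, and these relatives changed in opposite directions. Galnt6 made up 39.9% ± 4.80 of the role's summed level per kilobase in Lsd1 KO and 23.3% ± 4.75 in Control, whereas Galnt3 went from 13.1% ± 1.64 in Control to 4.44% ± 0.82 in Lsd1 KO. The sum of the role overlapped between the groups, at 42.8 to 58.1 CPM per kb against 41.4 to 43.5 CPM per kb.

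Galntl5, a Galnt relative known from testis (chr5:24687278-24726115), was at 11.1, 2.89 and 9.43 CPM in Lsd1 KO, against 1.11, 1.21 and 2.08 CPM in Control (log2 fold change 2.41 ± 0.53, adjusted p = 0.00784). All Lsd1 KO libraries were above all Control libraries. Lsd1 KO 2 was the lowest of its group, as it was for the sum of immune markers given above. Of the other higher genes, Fut10, Galnt6 and B3gnt1 were also lowest in Lsd1 KO 2 within their group, whereas Mgat4b, St3gal5, St8sia1 and Chst4 were not. Within Control, the sum of immune markers was lowest in library 2, at 25.7 CPM. Among the same Control libraries, Galntl5, Fut10 and Galnt6 were lowest in library 1 and B3gnt1 in library 3. The part of immune cells in these results was not tested. Galnt1, with Galnt6 the highest of the role per kilobase, had a log2 fold change of -0.23 ± 0.18 and did not pass. Galnt12 missed the threshold (log2 fold change -1.61 ± 0.60, adjusted p = 0.0734), with Control 3 at 2.53 CPM beside 13.4 and 9.34 CPM in the other Control libraries. Galnt9 did not overlap between groups and did not pass (log2 fold change 0.77 ± 0.32, adjusted p = 0.106).

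The Gcnt enzymes add a beta-linked GlcNAc branch to O-glycans or to poly-N-acetyllactosamine. Gcnt4 was per kilobase second only to Alg13 in Control among all 88 genes, at 81.1 CPM per kb, and was at 261, 323 and 306 CPM in Lsd1 KO against 422, 301 and 516 CPM in Control. These values overlapped and Gcnt4 did not pass (log2 fold change -0.48 ± 0.21, adjusted p = 0.122), nor did Gcnt2 (log2 fold change -0.13 ± 0.25).

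The transferases that extend chains with galactose, GlcNAc or GalNAc formed the role with most genes, 27, of which 18 were tested, 1 rose and 1 fell. The gene that rose was B3gnt1 (chr19:5038826-5041134), grouped here under its older symbol. Now called B4gat1, it is a glucuronyltransferase that acts on the O-mannose glycan of dystroglycan, so it does not add the sugars that name the role. It was at 29.3, 23.4 and 31.9 CPM in Lsd1 KO, against 10.6, 17.4 and 9.03 CPM in Control, without overlap (log2 fold change 1.18 ± 0.28, adjusted p = 0.0102). B3gnt2, the enzyme of poly-N-acetyllactosamine chains (chr11:22734747-22760961), was at 59.6, 65.8 and 67.5 CPM in Lsd1 KO, against 115, 158 and 159 CPM in Control. The log2 fold change of B3gnt2 was -1.16 ± 0.18 (adjusted p = 0.00141), and no library of one group reached the other. Of its exon bases, 73.1% also lie in exons of Commd1 on the same strand, so reads there could have been assigned to neither or to either gene. Commd1 was at 42.4 ± 3.95 CPM in Lsd1 KO against 45.4 ± 12 CPM in Control (SD, n = 3, adjusted p = 0.782).

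Several extension enzymes stood close to the threshold. B4galt6 and B4galt5 both make lactosylceramide, the base of gangliosides. B4galt6 was at 132, 182 and 120 CPM against 195, 188 and 242 CPM (log2 fold change -0.53 ± 0.20, adjusted p = 0.0786), and B4galt5 had a log2 fold change of -0.38 ± 0.19 (adjusted p = 0.170). Both were without overlap between groups. B4galt2 (0.47 ± 0.18, adjusted p = 0.0852) and B3galnt2, which like B3gnt1 acts on dystroglycan (0.50 ± 0.19, adjusted p = 0.0766), had positive log2 fold changes without overlap. B4galt3 had a log2 fold change of -1.25 ± 0.51 (adjusted p = 0.0966). B4galt4, the highest of the role per kilobase, was at 204, 232 and 143 CPM in Lsd1 KO, against 164, 223 and 36.6 CPM in Control, with Control 3 the lowest, and did not pass (log2 fold change 0.45 ± 0.45).

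Of 10 tested sialyltransferases 2 rose and none fell, beside 11.0% higher and 10.3% lower over all genes tested. Those 2 act in ganglioside synthesis: St3gal5 makes GM3, and St8sia1 makes GD3 from GM3. St8sia1 (chr6:142770065-142912972) was at 13.0, 17.9 and 14.9 CPM in Lsd1 KO, against 0.74, 3.54 and 2.89 CPM in Control. These groups were far apart, at 15.3 ± 2.45 against 2.39 ± 1.47 CPM (SD, n = 3, log2 fold change 2.65 ± 0.46, adjusted p = 0.00210). St3gal5 (chr6:72047607-72104564) was at 259, 137 and 123 CPM in Lsd1 KO, against 73.9, 59.9 and 128 CPM in Control. It was the only gene of the 18 whose groups overlapped, since Control 3 lay above Lsd1 KO 3 (log2 fold change 0.99 ± 0.31, adjusted p = 0.0416). St3gal5 did not pass without Lsd1 KO 1, Control 1 or Control 2 (adjusted p = 0.230, 0.135 and 0.152), and without Lsd1 KO 1 its log2 fold change was 0.57.

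St6galnac3, which sialylates O-glycans and gangliosides, was at 93.9, 61.0 and 33.5 CPM in Lsd1 KO, against 29.8, 12.3 and 70.3 CPM in Control, and these values overlapped (log2 fold change 0.75 ± 0.49, adjusted p = 0.302). In both St3gal5 and St6galnac3 Control 3 was the highest Control library and Lsd1 KO 1 the highest of all. B4galnt1, which takes GM3 and GD3 to GM2 and GD2, had only 23 counts in the Lsd1 KO libraries and 7 in the Control libraries and was not tested.

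Fut10 (chr8:32297803-32372210), a member of the fucosyltransferase family, had the smallest adjusted p of all 88 genes, 6.26e-05. It was at 40.6, 25.9 and 36.7 CPM in Lsd1 KO, against 5.73, 5.95 and 6.14 CPM in Control, which are 34.4 ± 7.61 and 5.94 ± 0.20 CPM (SD, n = 3, log2 fold change 2.53 ± 0.25). The lowest Lsd1 KO library was thus well above all Control libraries. Fut8, which adds core fucose to N-glycans, and Fut11 did not pass (log2 fold changes -0.23 ± 0.18 and -0.38 ± 0.22, Fut11 without overlap). Fut10 made up 21.1% ± 5.61 of the 3 tested genes' summed level per kilobase in Lsd1 KO and 3.67% ± 0.28 in Control, and Fut8 61.2% ± 6.35 and 73.1% ± 2.28. The sum itself was 31.6 to 35.2 CPM per kb in Lsd1 KO and 31.1 to 35.2 CPM per kb in Control.

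**Figure D2:**
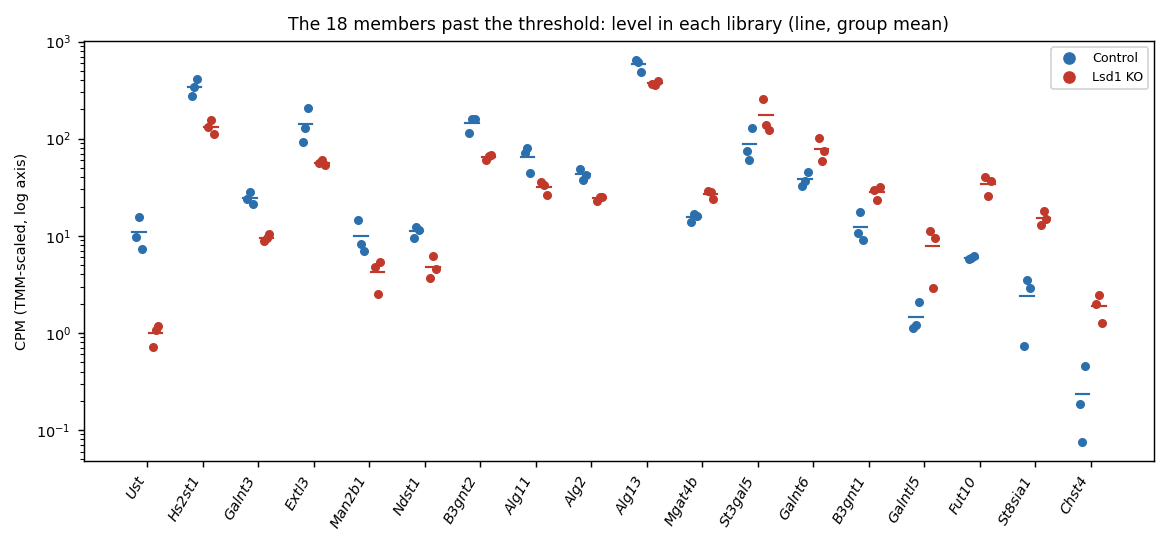
CPM (log scale) in each of the 6 libraries for the 18 genes that passed, with Lsd1 KO and Control libraries as separate points and a bar at each group's mean. The groups are apart for all but St3gal5, and the gap is widest for Ust.

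Heparan sulfate begins with Extl3, which starts the chain that Ext1 and Ext2 lengthen. Extl3 (chr14:65670897-65716943) was at 56.5, 59.8 and 53.2 CPM in Lsd1 KO, against 92.0, 128 and 208 CPM in Control (log2 fold change -1.34 ± 0.26, adjusted p = 0.00376). Its Lsd1 KO libraries lay close together and below all Control libraries, which spread widely. Ext1 was at 62.2, 63.8 and 58.5 CPM against 51.8, 66.8 and 68.9 CPM, with a log2 fold change of -0.02 ± 0.18 (adjusted p = 0.942). Ext2 was at 72.9, 187 and 30.8 CPM against 38.0, 47.0 and 74.1 CPM, with Lsd1 KO 2 far above the rest (log2 fold change 0.87 ± 0.48, adjusted p = 0.215), and without Lsd1 KO 2 the log2 fold change was -0.01. Only Extl3 passed of the 6 tested genes grouped here as linker and chain genes. B3gat3, B4galt7 and B3galt6 had counts too low to be tested. B3gat1 and B3gat2 were among the 6 only because the B3gat family was grouped as 1, so the 6 do not stand for the linker enzymes. B3gat1, of the glucuronyltransferases, was at or under 1.57 CPM throughout and had groups that did not overlap (log2 fold change -2.08 ± 0.88, adjusted p = 0.110), as did Extl2 (0.99 ± 0.47, adjusted p = 0.155).

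The heparan sulfate sulfotransferases had 2 genes that fell and none that rose among 6 tested, beside 10.3% lower and 11.0% higher over all genes tested. The summed level of this role was 32.5 to 46.1 CPM per kb in Lsd1 KO against 67.9 to 99.2 CPM per kb in Control. Hs2st1, which sulfates the uronic acid (chr3:144094067-144233145), was at 131, 155 and 111 CPM in Lsd1 KO, against 275, 338 and 415 CPM in Control. All Lsd1 KO libraries lay below all Control libraries (log2 fold change -1.37 ± 0.20, adjusted p = 9.09e-04). Ndst1, which removes acetyl groups from GlcNAc and sulfates it (chr18:60845632-60908304), was at 3.69, 6.13 and 4.58 CPM against 9.43, 12.4 and 11.5 CPM, also without overlap (log2 fold change -1.21 ± 0.32, adjusted p = 0.0188). It did not pass without Lsd1 KO 1, Lsd1 KO 3 or Control 2 (adjusted p = 0.0795, 0.0600 and 0.0687). Hs6st1, which sulfates the glucosamine, had nearly the same mean in both groups (log2 fold change 0.00 ± 0.23, adjusted p = 0.995), a value whose sign changed with the setting.

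Within this role Hs2st1 made up 70.4% ± 2.32 of the summed level per kilobase in Lsd1 KO and 83.8% ± 1.43 in Control, and Hs6st1 19.8% ± 1.38 and 9.24% ± 0.52 (SD, n = 3). The shares of both genes did not overlap between the groups. Shares of the same sum depend on each other, so a lower Hs2st1 raises the share of Hs6st1. The mean level of Hs6st1 itself was nearly the same in both groups. Hs3st5 and Hs3st3b1, which sulfate at rarer positions, had log2 fold changes of -0.42 ± 0.30 and -1.06 ± 0.68 and did not pass.

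Ust, which sulfates the uronic acid of chondroitin and dermatan sulfate (chr10:7924551-8238623), had the largest fold change of the 88 genes. It was at 0.72, 1.08 and 1.17 CPM in Lsd1 KO, against 9.71, 15.4 and 7.32 CPM in Control, or 34 counts in all against 391. Ust was 10.9-fold lower in Lsd1 KO (log2 fold change -3.44 ± 0.43, adjusted p = 3.25e-04), with no overlap. Chst4, a GlcNAc sulfotransferase (chr8:112552975-112563234), was at 2.0, 2.44 and 1.26 CPM against 0.18, 0.08 and 0.45 CPM, with only 8 Control counts in all (log2 fold change 2.98 ± 0.78, adjusted p = 0.0173). It did not pass without Lsd1 KO 1, Control 1 or Control 2 (adjusted p = 0.0591, 0.0618 and 0.0672), and without Control 3 its log2 fold change was 3.82.

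Chst7, of the sulfotransferases for chondroitin and GlcNAc, was the highest of this role per kilobase. It was at 30.0, 29.5 and 62.6 CPM against 28.4, 17.1 and 19.2 CPM, without overlap, and lay just outside the threshold (log2 fold change 0.92 ± 0.31, adjusted p = 0.0504). Without Lsd1 KO 3, the highest library, its log2 fold change was 0.46. Chst11, a chondroitin sulfotransferase, varied within groups, at 24.9, 7.94 and 40.2 CPM against 18.8, 20.9 and 37.4 CPM (log2 fold change -0.08 ± 0.44), and its sign changed without Lsd1 KO 2 (0.37). The sum of the role overlapped, at 17.3 to 37.7 CPM per kb in Lsd1 KO and 16.3 to 19.7 CPM per kb in Control.

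**Figure D3:**
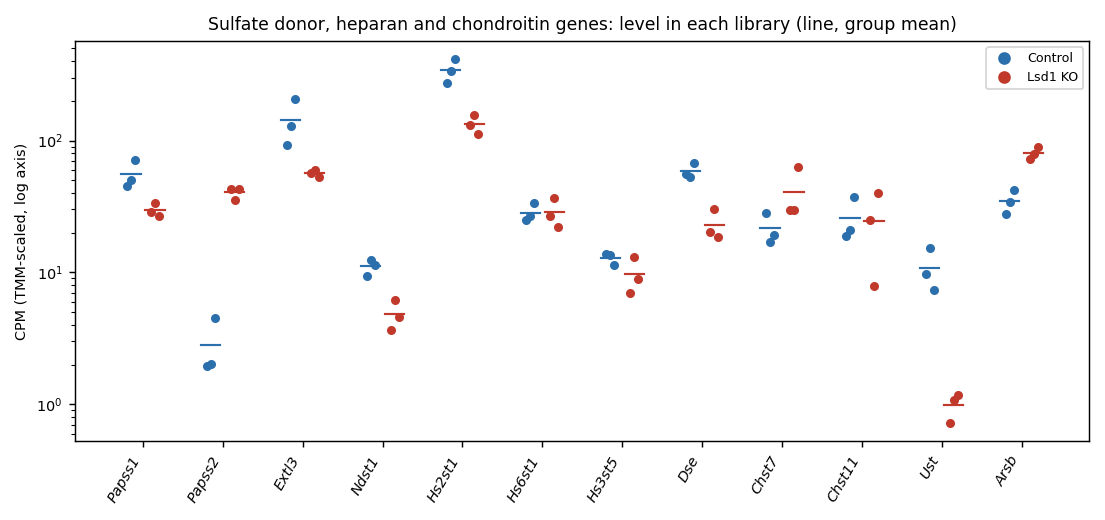
CPM in each of the 6 libraries (points; bars at group means) for genes of glycosaminoglycan synthesis and sulfation and for the sulfate donor genes, by group, on a log axis. Hs2st1, Ust, Extl3, Ndst1, Dse and Papss1 lie lower and Papss2 and Arsb higher in Lsd1 KO.

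**Figure D4:**
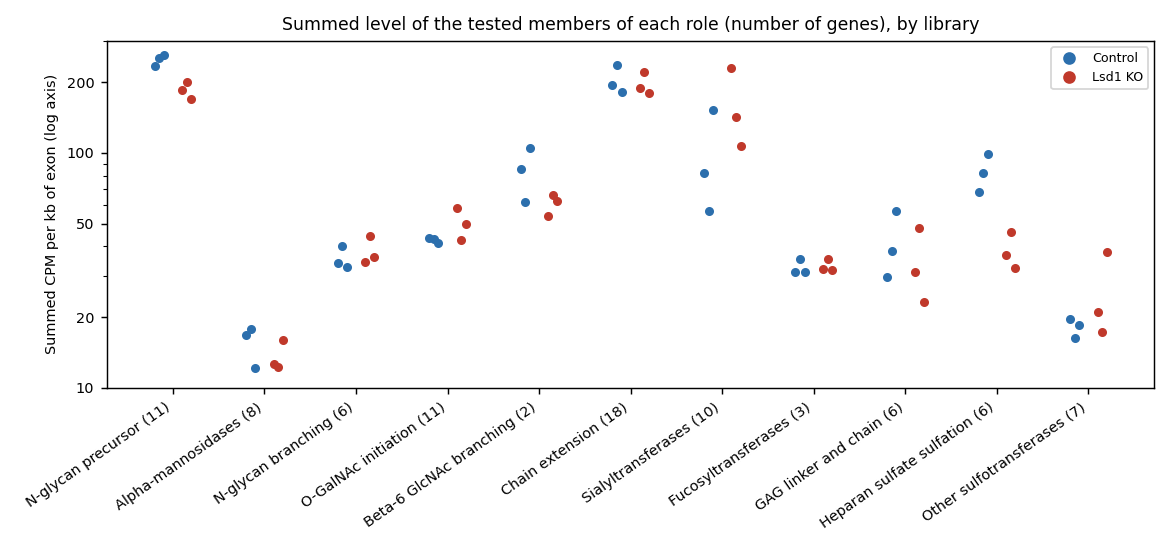
Summed CPM per kb of exon (log axis) over the tested genes of each role, 1 point per library, Lsd1 KO and Control side by side. The groups are apart only for the N-glycan precursor enzymes (169 to 200 against 233 to 260) and the heparan sulfate sulfotransferases (32.5 to 46.1 against 67.9 to 99.2). Most of the former sum is in Alg13 and Alg10b, and most of the latter in Hs2st1.

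Genes of the same pathways that the symbols above do not cover were read from a list of 156, of which 149 were in the tables and 125 were tested. Of these, 12 were higher and 14 lower, or 20.8%, near the 21.3% of all genes. The count of higher genes fell to 7 without Lsd1 KO 1 and to 6 without Lsd1 KO 3. Both genes that make the sulfate donor PAPS passed, in opposite directions. Papss2 was at 43.2, 35.5 and 42.5 CPM in Lsd1 KO, against 1.94, 2.03 and 4.52 CPM in Control (log2 fold change 3.84 ± 0.33, adjusted p = 2.05e-05). Papss1 was at 28.9, 33.5 and 26.6 CPM against 45.0, 50.3 and 71.4 CPM (log2 fold change -0.91 ± 0.21, adjusted p = 0.0112). The groups overlapped for neither gene.

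Arsb, the lysosomal enzyme that removes sulfate from chondroitin and dermatan sulfate, was higher in Lsd1 KO at 80.1 ± 8.17 against 34.6 ± 7.33 CPM (SD, n = 3, log2 fold change 1.21 ± 0.20, adjusted p = 0.00180). Dse, the epimerase that turns chondroitin into dermatan sulfate, which Ust sulfates, was lower at 23.0 ± 6.34 against 58.8 ± 7.74 CPM (-1.35 ± 0.22, adjusted p = 0.00179). Has3, a hyaluronan synthase, was lower at 15.2 ± 0.61 against 37.2 ± 12.1 CPM (-1.29 ± 0.25, adjusted p = 0.00390). Dse and Has3 were the 2 that passed of 11 tested glycosaminoglycan enzymes, and the groups were apart for all 3 genes.

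In the dolichol and oligosaccharyltransferase list, which serves the N-glycan precursor, 3 of 21 tested genes rose and 2 fell. Rpn1, a subunit of the oligosaccharyltransferase, rose (log2 fold change 1.08 ± 0.18, adjusted p = 0.00179), as did Dpm3, of dolichol mannose synthesis (1.2 ± 0.36, adjusted p = 0.0339), while Tusc3, another subunit, fell (-0.81 ± 0.20, adjusted p = 0.0140). Of 16 endoplasmic reticulum glucosidase and lectin genes, Ganab, the glucosidase subunit that trims the new N-glycan, rose (1.14 ± 0.19, adjusted p = 0.00167), Edem2 rose (0.70 ± 0.20, adjusted p = 0.0257) and Edem3 fell (-1.02 ± 0.20, adjusted p = 0.00390). Both Edem genes belong to the degradation of misfolded glycoproteins. Dpm3, Tusc3 and Edem2 lost their calls when single libraries were left out (adjusted p up to 0.121, 0.0609 and 0.0896): Dpm3 without any but Control 1, Tusc3 without Lsd1 KO 1, Lsd1 KO 3 or Control 1, and Edem2 without any Lsd1 KO library or Control 1.

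Of 24 sugar nucleotide genes, Fpgt, of the fucose salvage route, fell (-0.94 ± 0.18, adjusted p = 0.00351), and Gne, of sialic acid synthesis, and Pmm1, a phosphomannomutase, rose (0.87 ± 0.25, adjusted p = 0.0255, and 0.86 ± 0.28, adjusted p = 0.0431). Gne did not pass without Lsd1 KO 1 or Lsd1 KO 3 (adjusted p up to 0.0909) and Pmm1 without any library but Control 2 (up to 0.136). Slc35a5, of the nucleotide sugar carriers, was the 1 of 11 that passed and it fell (-0.78 ± 0.20, adjusted p = 0.0169), though not without Lsd1 KO 1 or Lsd1 KO 3 (up to 0.0826).

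The list of O-glycan and O-mannose enzymes had 1 higher and 5 lower of 18 tested, with a median log2 fold change of -0.53. Over all genes tested 11.0% were higher and 10.3% lower, with a median of -0.01. The share that passed, 33.3%, was the highest of these lists, which ran down to 9.09% for Golgi sugar nucleotide transport. No list was tested as a set. Pomt1 rose (1.63 ± 0.32, adjusted p = 0.00455) and its partner in O-mannosylation, Pomt2, fell (-1.25 ± 0.30, adjusted p = 0.0114). C1galt1c1, the chaperone of the enzyme that extends the GalNAc placed by Galnt proteins, fell (-1.22 ± 0.25, adjusted p = 0.00572), as did Gxylt1, which xylosylates O-glucose (-0.90 ± 0.19, adjusted p = 0.00552). Pomt2 was described after its values were seen, as the counterpart of Pomt1. Of 10 glycolipid genes, 2 lysosomal hydrolase genes were higher: Glb1 (1.47 ± 0.36, adjusted p = 0.0122) and Hexa (2.77 ± 0.69, adjusted p = 0.0140). Hexa was at 6.82, 1.62 and 9.52 CPM against 0.46, 0.53 and 1.63 CPM. It was lowest in Lsd1 KO 2 of its group, as was the sum of immune markers, whose part was not tested. Within Control, Hexa was lowest in library 1 and the sum of immune markers in library 2. Hexa lost its call without Lsd1 KO 3, Control 1 or Control 2 (adjusted p up to 0.0667), and without Control 3 its log2 fold change was 3.57. Ugt8a, which makes galactosylceramide, fell (-0.67 ± 0.21, adjusted p = 0.0408), and did not pass without any library but Control 3 (up to 0.154).

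Among the 60 glycan enzyme genes that were not tested, the highest group mean was 2.16 CPM. Gcnt3, of the O-glycan branching enzymes, had 20, 3 and 12 counts in Lsd1 KO and 0 in every Control library. Its Lsd1 KO counts were 11.8-fold above a floor of 3 counts over the Control group, after scaling. Extl1, a relative of Extl3, had 4, 0 and 4 counts in Lsd1 KO and 53, 9 and 10 in Control, with Control 1 far above the others. With no filter on low counts both passed (adjusted p = 0.00549 and 0.0139). Both genes are named here after their values were seen. Within Lsd1 KO the Gcnt3 counts were fewest in library 2, as was the sum of immune markers, whose part was not tested. The floor covers counting error in the Control group only, and neither that of the Lsd1 KO counts nor the spread between libraries.

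Gene length and base composition were also compared, as neither entered the choice of genes. The 8 higher genes had a median exon length of 2584 bases and the 10 lower genes one of 4645 bases, beside 4295 bases for the 70 that did not pass. Over all genes tested the same order was seen, with 3196 bases for higher and 4441 bases for lower genes. Median GC content was 53.1% for the higher and 48.5% for the lower glycan enzyme genes, against 49.6% and 47.3% for all higher and lower genes. After a correction of each library for length and GC content, 7 of the 8 and all 10 still passed, with St3gal5 lost.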

How the data were processed

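Oocyte RNA from 3 Lsd1 KO and 3 Control samples was sequenced after amplification, per the labels' protocols, and the series design calls the samples biological replicates. The deposited files hold raw read counts per gene symbol, 1 value a gene and sample. Per the submitters' processing notes, the authors used CASAVA 1.8.2, TopHat2 2.0.7, HTSeq 0.5.3p9 and mm9. Their options, the annotation and the strand setting are not given in the labels, so how reads in overlapping genes were treated is not known.

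From the counts, genes were filtered with filterByExpr (minimum count 10), scaled by TMM and tested with edgeR 4.0.16 (quasi-likelihood F test, two-sided, Benjamini-Hochberg over 12935 genes, threshold 0.05) in R 4.3.3. Every adjusted p comes from this fit unless another setting is named. Standard errors were taken from the fold change and F. Library totals were 10735422 to 13035045 counts. Over all genes, replicate pairs differed by more than counting noise (chi-square per degree of freedom 21.8 to 46.6). edgeR's common biological variation was 27.2%, as a coefficient of variation. For members with few counts, such as Chst4 and Ust, counting noise is not small beside it. The fit was checked on simulated data. Positions and exon lengths came from GENCODE M1 on NCBIM37 (mm9) for 146 of the 148 symbols, promoters from RefSeq (GRCm38.p6).

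The rule for the members reads symbols alone, but the families it covers, the roles and the lists were chosen with earlier results of these data known. Named were all members past the threshold, the 2 most abundant tested members of each role, members without overlap or with adjusted p from 0.05 to 0.10, and up to 3 called genes in each other list. Alternatives were DESeq2 1.42.0 (size factors and Wald test), upper-quartile scaling, limma 3.58.1 (voom), testing without a filter or only genes at 10 CPM in 3 libraries, a replicate block, each library left out, a loess correction for length and GC content, and an adjusted p under 0.01. No sample was left out of the main comparison.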

Additional observations from a re-analysis of the deposited data

How the results depend on the processing

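The number of glycan enzyme genes higher and lower in Lsd1 KO, 8 and 10, ran from 6 to 11 and from 7 to 12 when single libraries were left out, and at an adjusted p under 0.01 was 4 and 6. Of the 18 calls, 12 were kept in each of the 6 fits without a library: Alg2, Alg11, B3gnt1, B3gnt2, Extl3, Fut10, Galnt3, Galnt6, Galntl5, Hs2st1, St8sia1 and Ust. Man2b1 was also lost with upper-quartile scaling and limma-voom, and St3gal5 with the length and GC correction. The filter of 10 CPM in 3 libraries removed Chst4, Galntl5, Man2b1, Ndst1 and Ust before testing. Genes gained with a library left out were Chst7 (without Lsd1 KO 1, Lsd1 KO 2 or Control 1), Galnt12 (Lsd1 KO 2 or Control 3), B4galt6 (Lsd1 KO 2), Ext2 (Lsd1 KO 3), Gcnt4 (Control 2), and B3galnt2, B4galt3, Galnt9 and St6galnac3 (Control 3). Chst7 also passed with DESeq2 and with either filter setting. Over all genes, 1421 higher and 1329 lower became 676 and 497 at an adjusted p under 0.01 and ranged from 862 to 1571 and from 688 to 1275 without single libraries. The other pathway genes, 12 and 14, became 5 and 7 at 0.01, and without single libraries the higher ones ranged from 6 to 12. Of the other pathway genes named, the length and GC correction lost Dpm3, Edem2, Pmm1 and Ugt8a (adjusted p = 0.0711, 0.0580, 0.0755 and 0.0641), and limma-voom lost Hexa and Ugt8a (0.0550 and 0.0506). Pmm1 was also lost with no filter and Ugt8a with upper-quartile scaling and at 10 CPM in 3 libraries, and both with the replicate block. The median log2 fold change of the tested glycan enzyme genes, -0.12, was -0.0781 with upper-quartile scaling, -0.0690 with no filter, 0.0143 at 10 CPM in 3 libraries and -0.15 with the length and GC correction, and ranged from -0.19 to 0.00491 without single libraries, so its sign was not stable.

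Of the named genes recomputed in each setting, 5 changed sign, and none of these had passed. The log2 fold change of Hs6st1 was -0.0142 with limma-voom, -0.0112 with the replicate block and -0.0138 with the length and GC correction, and reached -0.19 without single libraries. Chst11 was at 0.0143 with 10 CPM in 3 libraries and ranged from -0.64 to 0.37 without single libraries. Ext2 ranged from -0.006 to 1.29, Gcnt2 from -0.26 to 0.11 and Hs6st1 from -0.19 to 0.16 in those fits. Mgat4c was at 0.0491 with the length and GC correction. The causes were not tested.

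Deviations of samples with the same replicate number had correlations of -0.03, 0.11 and -0.02. These lay within the -0.10 to 0.13 of samples with different numbers. With 3 libraries a group this check cannot decide whether the numbers pair the samples. With the replicate block 8 glycan enzyme genes were higher and 10 lower, Alg13 was lost and Galnt12 gained. Depth limits the 60 untested genes, and with 3 libraries a group a gene that missed the threshold is not shown to be alike in both.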
